A study of Sus scrofa with 12 samples.

Results

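Mitochondrial carriers and the proteins of the mitochondrial ribosome were followed in the hypothalamus of pigs with low or high feed efficiency. The members were all genes whose platform symbol names an SLC25 carrier, an uncoupling protein (UCP), or a mitochondrial ribosomal protein of the large (MRPL) or small (MRPS) subunit. They numbered 96 of the 13755 named genes: 35 carriers, 2 uncoupling proteins, 35 large-subunit and 24 small-subunit genes. Classes follow the symbols and not the place of the protein, so MRPS18A, for example, whose protein sits in the large subunit, counts with the small one. Each gene was represented by the brightest of its probe sets, taken by the mean over all arrays. RNA came from 12 pigs (Sus scrofa), each measured on its own Affymetrix Snowball array, a whole-transcript pig array. By the labels, 6 pigs had low and 6 had high feed efficiency, 3 females and 3 males in each group, all 140 days old. They name no drug, diet or genotype, and each pig has its own identifier. In a mixed tissue such as this, fewer cells of a type and less RNA per cell cannot be told apart.

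Most SLC25 proteins sit in the inner mitochondrial membrane and exchange nucleotides, phosphate, organic acids, amino acids and cofactors between the matrix and the cytosol. Uncoupling proteins belong to the same family, and UCP2 is known in the hypothalamus from rodent work on feeding neurons. The mitochondrial ribosome translates the few proteins that the mitochondrial genome encodes, all of them subunits of the respiratory chain or of ATP synthase, while its own proteins are encoded in the nucleus and imported.

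Median log2 signals of the 12 arrays ran from 4.35 to 4.42, and each array correlated with the others at a mean of 0.9657 to 0.9717. The pig identifiers fall into a lower run of 8 pigs and a higher run of 4, and in the lower run the array medians of the 4 low pigs (4.35 to 4.37) lay below those of the 4 high pigs (4.39 to 4.42). The tissue label was checked against its markers. OXT, AVP and CARTPT, which encode hypothalamic peptides, had mean signals of 11.80, 11.55 and 9.20, and 6 of the 8 hypothalamic markers measured lay above the brightest background probe set, at 7.49. None of the markers measured for brown or beige adipocytes (5) or for skeletal muscle (4), tissues known for uncoupling proteins, lay above that value. Over all genes only 19.9% did, so these few markers cannot tell whether such tissue was present. None of the oligodendrocyte, choroid plexus or pituitary markers that entered the tests was called by limma. The 4 oligodendrocyte markers measured, all above the brightest background probe set, had a median difference, low minus high feed efficiency, of -0.17. The 3 choroid plexus markers had 0.41 and the 2 pituitary markers bright enough to be tested (of 4 measured) 0.42, with none of these above that background. Medians were 0.085 for neuron, 0.014 for astrocyte, 0.049 for microglia and 0.030 for endothelial markers. They were 0.22 for red blood cell, -0.060 for hypothalamic, -0.17 for skeletal muscle and -0.035 for adipocyte markers, with 0 called in each list. The part of these cell types in the results below was not tested.

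Signals of the members spanned a wide range. The carriers had mean log2 signals from 2.62 to 10.33 with a median of 6.52, the large-subunit genes from 1.70 to 8.58 with a median of 6.49, and the small-subunit genes from 5.0 to 8.77 with a median of 6.72. The median over all genes was 5.93, and 72 of the 96 members (75%) lay above it: 25 carriers, 1 uncoupling protein, 28 large-subunit and 18 small-subunit genes. Signals above the brightest background probe set were found for 13 of 35 carriers, 5 of 35 large-subunit genes, 3 of 24 small-subunit genes and neither uncoupling protein. The members' share was 21.9%, against 19.9% of all genes. That limit is the top of 69 background probe sets, whose median was 2.35. Probes differ in how well they bind, so the signals describe each probe set and are no order of abundance between genes.

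**Figure D1:**
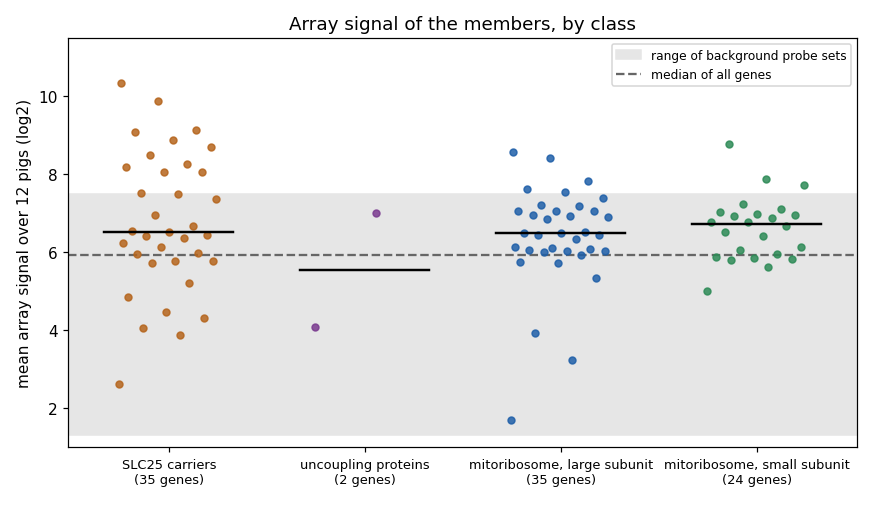
Mean log2 array signal over 12 pigs (vertical axis) of each member, 1 point per gene, grouped by class; black bars mark class medians, the dashed line the median of all genes (5.93) and the grey band the range of the background probe sets (1.30 to 7.49). The carriers spread widest, from 2.62 to 10.33, and most ribosomal protein genes lie within the band.

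Among carriers, the probe sets with the highest signal belonged to SLC25A3, the mitochondrial phosphate carrier, at 10.33, and SLC25A6, an ADP/ATP carrier, at 9.88. The lowest were SLC25A31, the ADP/ATP carrier known from germ cells in mice, at 2.62, and SLC25A15, an ornithine carrier of the urea cycle, at 3.88. In the large subunit the extremes were MRPL37 at 8.58 and MRPL34 at 8.42, and MRPL51 at 3.24 and MRPL9 at 1.70. MRPL9 was under the limit of 2.43 below which the dimmest 25% of probe sets were left untested, so 95 of the 96 members entered the tests. In the small subunit MRPS10 (8.77) and MRPS22 (7.88) were the highest, and MRPS25 (5.62) and MRPS28 (5.0) the lowest. UCP2 had a mean signal of 7.0 and UCP3, the form known from muscle, 4.08.

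Most members varied little from pig to pig. The median SD within a feed efficiency group was 0.14 for carriers, 0.18 for large-subunit and 0.15 for small-subunit genes, against 0.18 over all genes. It ran from 0.047 for SLC25A3 to 0.89 for SLC25A10, the dicarboxylate carrier.

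The comparison of feed efficiency asked whether expression of these genes differed between inefficient and efficient pigs. None of the 95 tested members was called at an adjusted p of 0.05 by limma with sex as a term. Their lowest adjusted p was 0.764. Over all 35791 probe sets 0 were called too (0%), with a lowest adjusted p of 0.714. At an unadjusted p under 0.05, 3 of the 95 members stood out, MRPL1, MRPS14 and MRPL18, while 5.5% of all genes did so. No member had groups without overlap, against 0.23% of all genes. The median difference, low minus high, was -0.0031 for the 35 carriers, 0.012 for the 34 tested large-subunit genes and 0.037 for the 24 small-subunit genes, against -0.0017 over all genes. With the arrays shifted to equal medians, which adds 0.022 to each difference, the medians were 0.019 for carriers, with their sign turned, 0.034 and 0.059 for the subunits and 0.020 over all genes. Carriers lay higher in the low group in 15 cases and lower in 20, large-subunit genes in 18 and 16, and small-subunit genes in 13 and 11; the shift gave 20 and 15, 20 and 14, and 14 and 10.

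The data also bound how large a difference in the signal of the brightest probe set could be. The 95% interval of the difference lay within 1.5-fold in either direction (0.585 on the log2 scale) for 90 of the 95 members (94.7%), against 88.7% of all genes. That held for 34 of 35 carriers, both uncoupling proteins, 30 of 34 large-subunit genes and all 24 small-subunit genes. The median SE of the difference was 0.096 for the members and ran from 0.059 to 0.46. The 5 exceptions, SLC25A10, MRPL19, MRPL23, MRPL44 and MRPL45, were picked out by their intervals. These limits are on signal. Only 21 of the 96 members lay above the brightest background probe set, at 7.49, while the background median was 2.35. How signal inside the background range follows RNA was not tested. Further probe sets of the same genes were not counted, and some differed by more, such as 0.43 ± 0.16 for MRPL37.

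**Figure D2:**
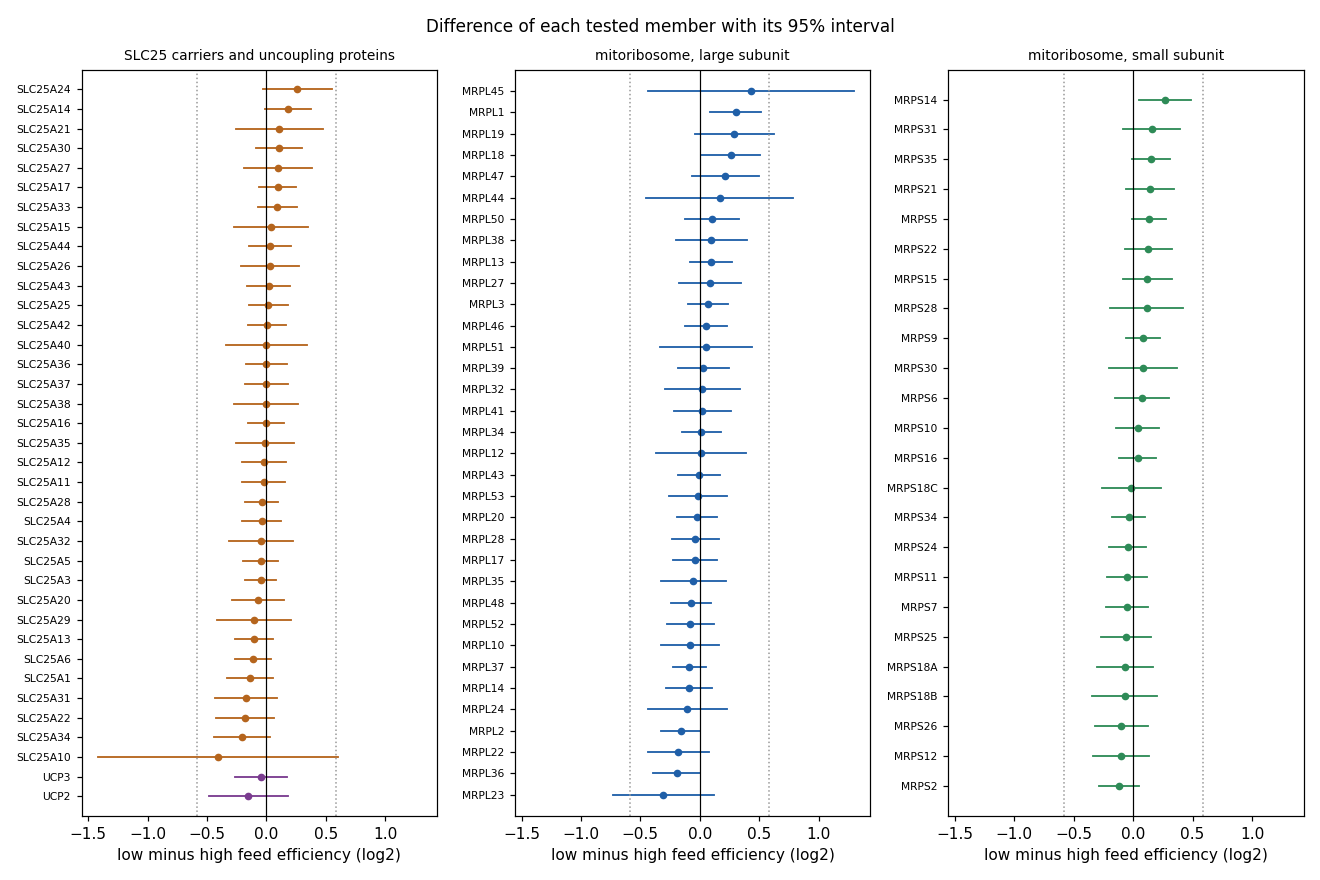
Difference in log2 signal, low minus high feed efficiency (horizontal axis), of the 95 tested members with 95% intervals from limma, sorted within class; dotted lines mark 1.5-fold. Points scatter on both sides of 0, and the intervals of 5 members reach past a dotted line.

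In the large subunit the smallest unadjusted p belonged to MRPL1 (probe set SNOWBALL_011557_st), whose bacterial counterpart forms a mobile stalk of the ribosome. Its lowest, median and highest signals were 6.56, 6.63 and 6.80 in low feed efficiency pigs, against 6.16, 6.25 and 6.65 in high feed efficiency pigs. All 6 low pigs lay above the mean of the high group, and 5 of the 6 high pigs lay below every low pig. The means were 6.64 ± 0.09 and 6.34 ± 0.20 (SD, n = 6 each), a difference of 0.30 ± 0.10 (SE), or 1.23-fold, with a limma adjusted p of 0.764.

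MRPL18, a protein that helps carry ribosomal RNA into human mitochondria, had 6.80, 7.03 and 7.24 in low pigs and 6.46, 6.74 and 7.07 in high pigs (lowest, median, highest). The groups overlapped over a wide stretch, although each low pig lay above the high group's mean. The difference was 0.26 ± 0.11 (SE; limma adjusted p 0.799). MRPL19 had 5.74, 6.21 and 6.46 in low pigs and 5.31, 6.0 and 6.14 in high pigs, a difference of 0.29 ± 0.15. A single high pig, at 5.31, lay far below the others, and without it the difference was 0.18.

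MRPL2 and MRPL36, which both have bacterial counterparts, lay on the other side. MRPL2, a core protein near the catalytic centre of the ribosome, had 6.93, 6.94 and 7.07 in low pigs and 7.0, 7.08 and 7.30 in high pigs. Each low pig was below the high group's mean, and the difference was -0.16 ± 0.07 (SE; limma adjusted p 0.813). MRPL36 had 5.81, 5.99 and 6.10 in low pigs and 6.0, 6.08 and 6.43 in high pigs, a difference of -0.19 ± 0.09. In both genes the high group held a few pigs well above the rest, and the groups overlapped.

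In the small subunit MRPS14 (probe set SNOWBALL_013145_st), a protein of the head of the subunit, had 5.81, 5.93 and 6.15 in low pigs, against 5.47, 5.72 and 5.93 in high pigs. The means were 5.97 ± 0.15 and 5.70 ± 0.17 (SD, n = 6 each), and the difference was 0.27 ± 0.10 (SE; limma adjusted p 0.796). All 6 low pigs lay above the high group's mean, but 1 high pig came close to the median of the low group. MRPS35 had 6.87, 7.06 and 7.23 in low pigs and 6.79, 6.88 and 7.05 in high pigs, a difference of 0.15 ± 0.07. MRPS5 and MRPS21 differed by 0.13 ± 0.07 and 0.14 ± 0.09, and MRPS2 by -0.12 ± 0.08. The last 3 differences were under 2 SE.

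**Figure D3:**
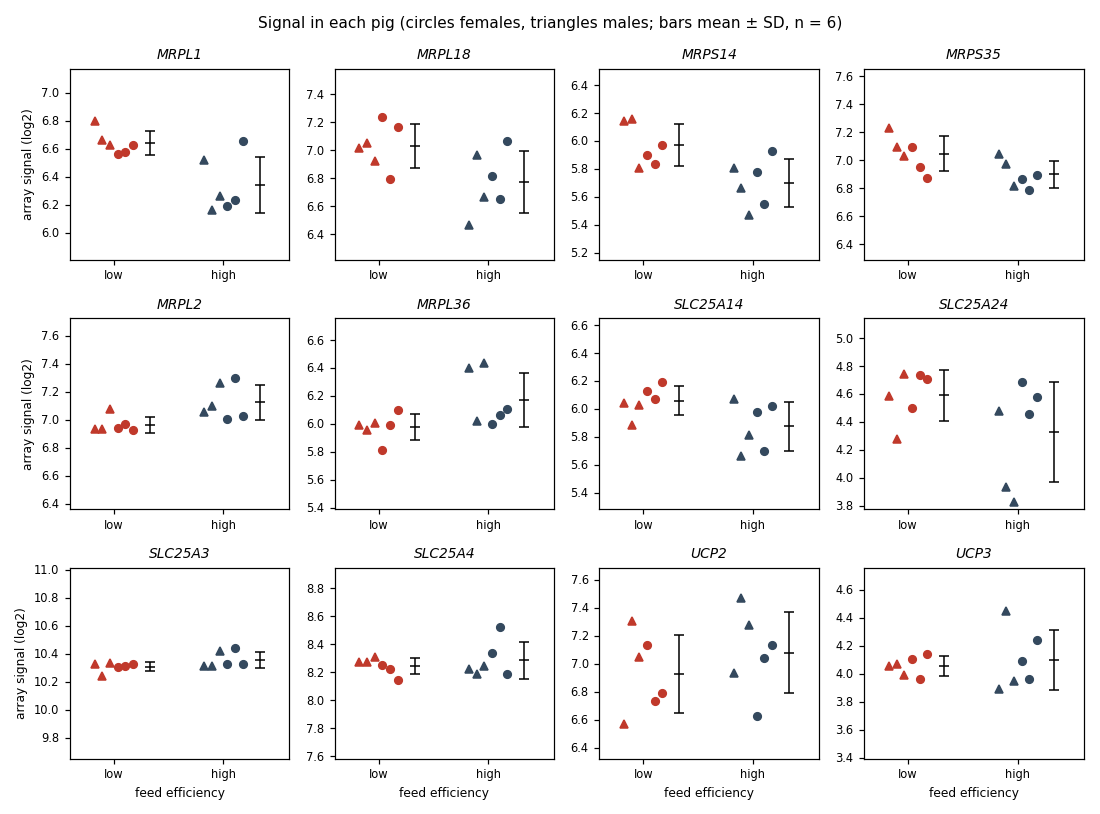
Log2 array signal (vertical axis, the same span in every panel) of 12 members in each pig, low feed efficiency left and high right; circles are females, triangles males, and bars the mean ± SD of 6 pigs. The groups overlap in each panel; SLC25A3 is the tightest, and in SLC25A24 2 high males lie below the other pigs.

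Among carriers, those that serve ATP synthesis differed little between the groups. SLC25A3 had 10.24, 10.32 and 10.33 in low pigs and 10.31, 10.33 and 10.44 in high pigs, a difference of -0.049 ± 0.059 (SE; limma adjusted p 0.896). The ADP/ATP carriers SLC25A4, SLC25A5 and SLC25A6, which swap matrix ATP for cytosolic ADP, differed by -0.038 ± 0.075, -0.049 ± 0.068 and -0.11 ± 0.07. As means of their probe sets SLC25A4 differed by -0.071 and SLC25A6 by -0.015. For all 4 genes the interval stayed within 1.5-fold.

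The carriers of the malate-aspartate shuttle, which moves reducing power into mitochondria, had small differences in their brightest probe sets. SLC25A11, the 2-oxoglutarate/malate carrier, differed by -0.022 ± 0.082 (means 8.68 in low and 8.70 in high pigs), but by -0.34 as the mean of its 2 probe sets, the dimmer of which differed by -0.67 ± 0.43. SLC25A12, the aspartate/glutamate carrier that prevails in brain, differed by -0.017 ± 0.085, and its relative SLC25A13 by -0.11 ± 0.07. The glutamate carrier SLC25A22 differed by -0.18 ± 0.11 and the citrate carrier SLC25A1, which exports carbon for lipid synthesis, by -0.14 ± 0.09, or by -0.037 as the mean of its probe sets. SLC25A20, the carnitine/acylcarnitine carrier of fatty acid oxidation, had 6.09, 6.58 and 6.69 in low pigs and 6.51, 6.53 and 6.67 in high pigs, a difference of -0.069 ± 0.10. A single low pig, replicate 2, lay far below the others, and without it the difference was 0.017.

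The carriers with the smallest unadjusted p were SLC25A14 and SLC25A24. SLC25A14, a brain carrier related to the uncoupling proteins, had 5.89, 6.06 and 6.19 in low pigs and 5.66, 5.90 and 6.07 in high pigs. All 6 low pigs lay above the high group's mean, and the difference was 0.18 ± 0.09 (SE; limma adjusted p 0.813). SLC25A24, a calcium-dependent ATP-magnesium/phosphate carrier, had 4.28, 4.64 and 4.74 in low pigs and 3.83, 4.47 and 4.69 in high pigs, a difference of 0.26 ± 0.13. The 2 lowest values were those of high males. SLC25A34 differed by -0.21 ± 0.11. SLC25A27, the other brain relative of the uncoupling proteins, had means of 9.19 ± 0.23 in low and 9.09 ± 0.22 in high pigs (SD, n = 6 each), a difference of 0.097 ± 0.13.

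UCP2, an inner membrane protein tied to substrate use and reactive oxygen, had 6.57, 6.92 and 7.30 in low pigs, against 6.63, 7.09 and 7.47 in high pigs. The ranges overlapped almost fully, and the difference was -0.15 ± 0.15 (SE; limma adjusted p 0.872; interval -0.48 to 0.18). Leaving out 1 pig moved it to between -0.23 and -0.050, nearest 0 without low replicate 1. UCP3 had 3.96, 4.07 and 4.15 in low pigs and 3.89, 4.03 and 4.45 in high pigs, a difference of -0.042 ± 0.10 (limma adjusted p 0.952). In all pigs both genes stayed under the brightest background probe set. UCP1, the heat-producing form of brown fat, was not analysed here.

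A few members varied far more than the rest, most of them within both groups. MRPL44 did so in the high group alone (SD 0.79, against 0.24 in low pigs). SLC25A10 had 3.28, 3.74 and 5.27 in low pigs and 3.23, 4.48 and 5.49 in high pigs. Split at gaps over 0.5, its signal fell into 3 ranges of 4 pigs each: 3.23 to 3.39 (3 low and 1 high pigs), 4.08 to 4.54 (1 low and 3 high) and 5.25 to 5.49 (2 low and 2 high). This split was made after its values were seen. The difference was -0.41 ± 0.46.

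MRPL45, whose protein lies at the ribosome's exit and the inner membrane, had 4.82, 6.39 and 6.96 in low pigs and 4.58, 5.70 and 6.91 in high pigs, a difference of 0.43 ± 0.40. Its second probe set differed by -0.0031 ± 0.097 and correlated with the first at -0.313. MRPL44 had 3.69, 3.97 and 4.41 in low pigs and 2.53, 3.95 and 4.80 in high pigs, and MRPL23 differed by -0.31 ± 0.19. The dimmer probe sets of MRPL23 differed by -0.34 ± 0.14 and 0.18 ± 0.19. For these 4 genes, and for MRPL19, a 1.5-fold difference in at least 1 direction was inside the interval and so was not excluded.

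Probe sets of the same gene often disagreed. The 96 members had 136 probe sets, and 33 members had more than 1. Over the 42 pairs of tested probe sets of 1 gene the median correlation across pigs was 0.060, against 0.164 over all genes. Of the 34 tested second or further probe sets, 21 had a difference of the same sign as the brightest. The 3 probe sets of SLC25A44, a carrier of branched-chain amino acids, ran together, with correlations of 0.727 and 0.818 with the brightest. Those of MRPL37 did not: the brightest differed by -0.089 ± 0.064, and another, at a mean of 7.08, by 0.43 ± 0.16 (unadjusted p 0.0204 in the limma fit). A dimmer probe set of MRPL35 differed by 0.21 ± 0.08 (unadjusted limma p 0.0226), against -0.053 for its brightest. A dimmer probe set of MRPL23 differed by -0.34 ± 0.14 (unadjusted limma p 0.0341). The statements on single genes therefore hold for the probe set measured, and 63 members had only 1.

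Sex was the other labelled factor. None of the 95 tested members was called between females and males (lowest limma adjusted p 0.869), against 8 probe sets (0.0224%) of all tested. Without adjustment 4 members passed 0.05, against 3.95% of all genes. MRPL23 had 5.40, 6.04 and 6.58 in females and 6.40, 6.75 and 7.42 in males, a difference, female minus male, of -0.75 ± 0.19 (SE). Its other 2 probe sets differed by 0.28 and 0.14, in the opposite direction. SLC25A30, a carrier close to the brain relatives of the uncoupling proteins, had 8.01, 8.17 and 8.42 in females and 7.76, 7.88 and 8.14 in males, a difference of 0.27 ± 0.09 (limma adjusted p 0.97). Its second probe set differed by 0.21 and correlated with the first at 0.883. SLC25A24, MRPL48, MRPL50 and MRPL14 differed by 0.30 ± 0.13, 0.18 ± 0.08, 0.21 ± 0.10 and -0.18 ± 0.09. The higher run of identifiers held 4 females, so sex and run are partly tied.

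Whether the feed efficiency difference itself varied with sex was tested as an interaction, with 3 pigs per sex and group. No member was called (lowest limma adjusted p 0.783), nor any probe set (0%). Only SLC25A15 and MRPL50, 2 of the 95 members, passed an unadjusted threshold of 0.05, against 5.28% of all genes. SLC25A15 had a low minus high difference of 0.34 ± 0.16 in females and -0.27 ± 0.16 in males, an interaction of 0.61 ± 0.23. MRPL50 had -0.11 ± 0.12 in females and 0.32 ± 0.12 in males, an interaction of -0.43 ± 0.17. MRPL47 and MRPL51 followed with -0.46 ± 0.23 and 0.60 ± 0.32.

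Within females 0 members were called and 0 passed an unadjusted p of 0.05, against 3.47% of all genes, and 0% of probe sets were called. Within males 0 members were called by limma (lowest adjusted p 0.504), against 0.00838% of probe sets. There 6 members passed the unadjusted threshold, against 8.07% of all genes: MRPS14 (0.39 ± 0.14), MRPL1 (0.38 ± 0.14), MRPL47 (0.44 ± 0.16), MRPL50 (0.32 ± 0.12) and SLC25A24 (0.45 ± 0.18) lay higher in low males and MRPL36 (-0.30 ± 0.13) lower. The corresponding values in females were 0.15 ± 0.14 for MRPS14 and 0.23 ± 0.14 for MRPL1. The interaction was not called for either gene.

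Covariation described whether the signals of genes of a complex moved together from pig to pig. Probe sets of the same member correlated at a median of only 0.060, against 0.164 over all genes. Medians near 0 between genes therefore cannot tell whether their RNA moved together. Over the 12 pigs the median pairwise Pearson correlation was 0.010 between carriers, -0.010 between large-subunit genes, -0.019 between small-subunit genes and 0.012 between the subunits. It was -0.003 between carriers and large-subunit genes and -0.021 between carriers and small-subunit genes. All 79487136 pairs of tested genes had a median of 0.002. Correlations over 0.5 made up 9.06% of small-subunit pairs, 8.58% of pairs across the subunits, 7.06% of carrier pairs and 6.77% of large-subunit pairs, against 6.04% of all gene pairs. Correlations under -0.5 made up 5.07%, 5.15%, 4.71% and 7.13% of the same pairs in that order, against 5.59%. The points share arrays and pigs, and with 6 pigs of each group any difference between groups enters as well. With group and sex means removed, the medians lay between -0.030 and 0.029.

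**Figure D4:**
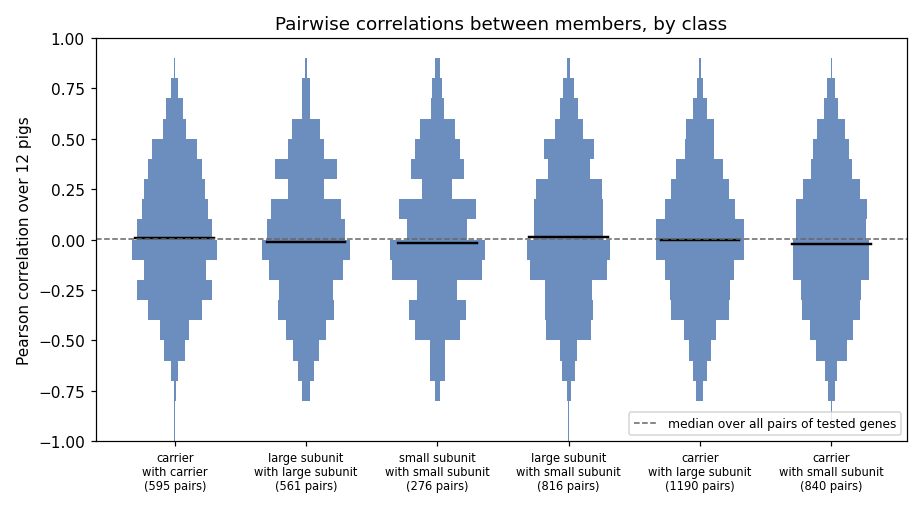
Distribution of Pearson correlations over 12 pigs (vertical axis) for pairs of tested carrier, large-subunit and small-subunit genes, by pair of classes. Uncoupling proteins are left out. Widths are scaled within each class, black bars are medians and the dashed line is the median over all gene pairs (0.002). Every class is centred close to 0 and spreads widely to both sides.

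Single pairs reached high values in both directions. MRPS7 and MRPS34, both of the small subunit, correlated at 0.897 (Spearman 0.881), MRPL19 and MRPS21 at 0.842, and MRPL1 and MRPS14 at 0.834. MRPL41 and SLC25A26, which carries S-adenosylmethionine, correlated at 0.891. The strongest negative pairs were SLC25A29, a carrier of basic amino acids, with SLC25A36, a carrier of pyrimidine nucleotides, at -0.920, and MRPL52 with MRPS10 at -0.915. These extremes were picked from all member pairs and carry no test.

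The members closest to the rest of their class had low mean correlations too. They were MRPS15 (0.131), MRPS35 (0.120) and MRPS28 (0.104) in the small subunit, SLC25A11 (0.125), SLC25A5 (0.123) and SLC25A42 (0.122), a coenzyme A carrier, among carriers, and MRPL45 (0.084), MRPL53 (0.074) and MRPL46 (0.071) in the large subunit. The farthest were SLC25A17, a peroxisomal carrier (-0.144), and SLC25A36 (-0.103), MRPS18B (-0.139) and MRPS25 (-0.123), and MRPL48 (-0.125) and MRPL51 (-0.122).

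Related genes were also tested as pairs over the 12 pigs by a two-sided permutation test with 100000 resamples. Of 10 listed pairs 8 were measured and 0 passed after adjustment over the 8, with adjusted p-values for Pearson's r from 0.68 to 0.936. SLC25A3 and SLC25A4, which together supply phosphate and ADP for ATP synthesis, had r = 0.529 (permutation p 0.101, adjusted 0.68) and Spearman's rho 0.357 (adjusted 0.689). Without the 2 pigs farthest from the median of SLC25A3 r was -0.097, and in the 8 pigs of the lower identifier run -0.054, so the value rested on a few pigs. UCP2 and UCP3 had r = 0.393 (permutation p 0.21, adjusted 0.68) and rho 0.245, and r was 0.017 without the 2 farthest pigs. In the lower run SLC25A14 and SLC25A27 had r = -0.699, against -0.261 over all pigs, and MRPS18A and MRPS18B -0.622, against -0.256; neither passed the permutation test there (adjusted p 0.415 for both). The iron carriers SLC25A28 and SLC25A37 had r = 0.026 (permutation p 0.936) and rho -0.231.

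Across all probe sets, the 1st principal component took 12.9% of the variance and ran with feed efficiency in part of the pigs. In the lower identifier run the 4 low pigs scored -35.35 to -8.13 and the 4 high pigs 3.23 to 43.56. In the higher run the 2 low pigs scored -12.57 and 1.26 and the 2 high pigs -19.82 and -1.70. MRPL1 and MRPS14 correlated with it at -0.799 and -0.724, MRPL47 at -0.815, MRPL50 at -0.733, MRPL18 at -0.336 and MRPL2 at 0.496. Of the 95 members 14 lay under -0.5 (14.7%, against 14.4% of all genes) and 8 over 0.5 (8.42%, against 11%). The part of this component in the differences was not tested. Within the lower run, with 4 low and 4 high pigs, MRPL1, MRPS14 and MRPL18 differed by 0.38, 0.32 and 0.33. Within the higher run, with 2 and 2, they differed by 0.15, 0.16 and 0.12. These within-run values were added after seeing the data and carry no test.

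**Figure D5:**
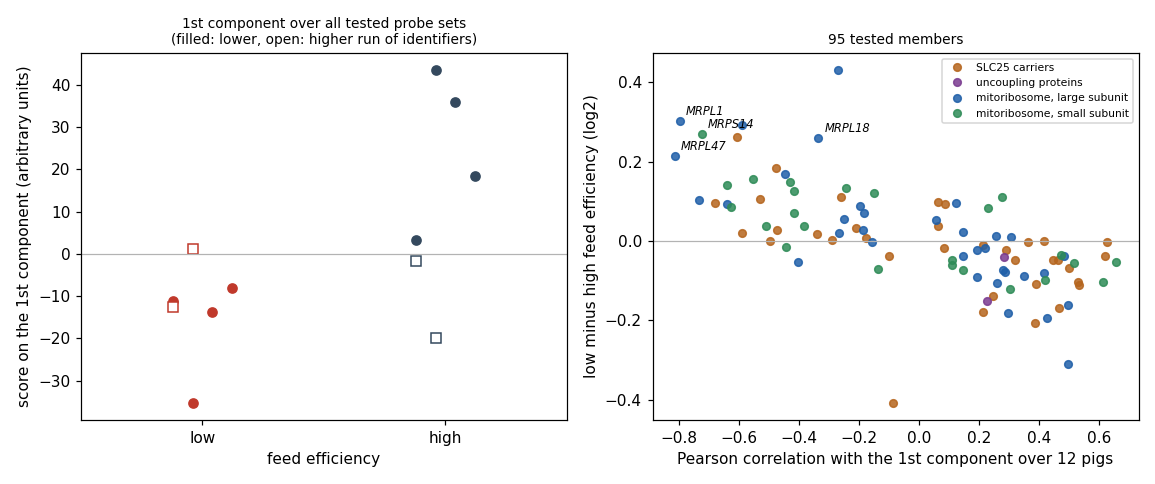
Left: score of each pig on the 1st principal component over all tested probe sets (arbitrary units), low feed efficiency left and high right, filled circles for the lower and open squares for the higher identifier run. Right: difference in log2 signal, low minus high, of the 95 tested members against their correlation with that component over 12 pigs; MRPL1 and MRPS14 sit at its negative end.

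Genes that work beside the members were read from the same fit. Of 90 listed genes of mitochondrial translation, biogenesis and transport, 60 were measured, 59 tested and 0 called by limma, and 2 (3.39%, against 5.5% of all genes) passed an unadjusted p of 0.05. SFXN5 and SFXN3 are sideroflexins, inner membrane carriers outside the SLC25 family. SFXN5 differed by -0.22 ± 0.08 and SFXN3 by -0.20 ± 0.08 (limma adjusted p 0.796 and 0.799), and their relatives SFXN2 and SFXN4 by -0.021 ± 0.13 and -0.10 ± 0.15. The list medians lay between -0.034, for 6 mitoribosome proteins under other symbols, and 0.062, for 9 translation factors.

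In those lists the values nearest the threshold were mixed in direction. MTFMT, which formylates the initiator transfer RNA, differed by 0.20 ± 0.09 and the elongation factor GFM1 by 0.14 ± 0.09. Among regulators of mitochondrial biogenesis GABPA differed by 0.27 ± 0.14 and TFAM, which packages mitochondrial DNA and takes part in its transcription, by 0.22 ± 0.12. Of the ribosome assembly factors GTPBP10 differed by 0.37 ± 0.19 and the RNA methyltransferase MRM1 by -0.18 ± 0.10. For mitoribosome proteins under other symbols, CHCHD1 differed by -0.14 ± 0.08 and ICT1 by 0.12 ± 0.08, and of the transfer RNA synthetases IARS2 and LARS2 by 0.10 ± 0.06 and 0.12 ± 0.08.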

How the data were processed

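Total RNA was isolated with a phenol reagent, DNase-treated and column-purified, then copied to DNA and biotin-labelled, per the labels. The log2 values were summarised by the authors before deposit to 1 value per probe set and array. Their log2 scale was read from their range; background correction, summary method and normalization are not stated in the sources. GCOS 1.1.1 is the tool named in the submitters' processing notes. Arrays have no read depth, and their number limits the precision.

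Of 47845 rows, 123 controls and the dimmest 25% of the other 47722 were left out, leaving 35791 probe sets. Gene names came from the platform annotation. Differences were fitted with limma 3.58.1 in R 4.3.3 (lmFit and eBayes, sex and feed efficiency as terms, or the 4 groups of both), with Benjamini-Hochberg adjustment over all 35791 probe sets and a threshold of 0.05. Correlations used scipy 1.17.1. On simulated data of the feed efficiency comparison, over 35791 probe sets, the fit recovered 75% of 100 probe sets changed by 1 and 25% of 100 changed by 0.5 on the log2 scale. The simulated noise was normal and independent between probe sets, with 200 changed in all and 3 false calls. Recovery on the real arrays may differ.

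Members and lists were chosen with earlier results of these data known. Named genes were, for feed efficiency, the members of smallest unadjusted p (6 carriers, 5 per subunit), the uncoupling proteins and a list of carriers of known substrate; for sex 6 and interaction 4 of smallest p; per class the 2 highest and lowest signals and the 3 highest and 2 lowest mean correlations; per related list the 2 of smallest p. RefSeq's pig assembly lists 124 protein-coding symbols that match the rule, of which 95 had a probe set under that symbol. The others were not analysed under these symbols. Sequences were not used here. Replicate numbers follow accession order and only name pigs. Alternatives varied the filter, normalization, eBayes settings, array weights, probe set summary, model terms and the pigs included.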

Additional observations from a re-analysis of the deposited data

Results flagged for a closer look

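In 9 of the 100 groups checked (50 named genes, 2 groups each) 1 pig lay far from the other 5, by Dixon's ratio over its 95% critical value. Chance gives about 1 in 20 groups.

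In the low feed efficiency group, MRPL2 had a highest pig at 7.07, with the next at 6.97. MRPL45 had a lowest pig at 4.82, with the next at 6.32. SLC25A3 had a lowest pig at 10.24 and the next at 10.31, a gap that is small in absolute size. SLC25A27 had a highest pig at 9.64, with the next at 9.17.

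In the high feed efficiency group, MRPL9 had a highest pig at 1.92, under the limit for testing. MRPL19 had a lowest pig at 5.31, with the next at 5.93, and MRPL37 a highest pig at 8.74, with the next at 8.63; both were high replicate 3. MRPS25 had a lowest pig at 5.50, with the next at 5.65. MRPS28 had a lowest pig at 4.30, with the next at 4.93. No single pig held more than 2 of these values.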

How the results depend on the processing

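No member was called for feed efficiency, sex, their interaction or within a sex under any alternative run. The filter on the lowest 50% left out the dimmest named members, which then have no value. Of 26 members named for feed efficiency, 25 kept their sign under the 10 alternatives that keep all pigs. Changes of filter, eBayes settings or model terms cannot move a difference in this balanced design. Only those of normalization, array weights and probe set summary could turn a sign. The exception, SLC25A12, was 0.0050 with arrays shifted to equal medians, which adds 0.022 to each difference, the gap between the groups' mean array medians (4.375 low, 4.397 high). Class medians were then 0.019, 0.034 and 0.059 for carriers, large and small subunit, and 0.020 over all genes. Without any one pig 20 kept their sign. The ranges of the other 6 were -0.062 to 0.013 for SLC25A4, -0.076 to 0.011 for SLC25A11, -0.054 to 0.028 for SLC25A12, -0.12 to 0.017 for SLC25A20, -0.0042 to 0.18 for SLC25A27 and -0.085 to 0.038 for UCP3. Probe sets called numbered 0 to 1, the 1 arising without low replicate 2. With arrays shifted to equal medians the median correlations were 0.046 between carriers, 0.014 between large-subunit and 0.049 between small-subunit genes, 0.053 between the subunits, and 0.027 and 0.016 between carriers and the large and small subunit, against 0.020 over all gene pairs; the shift adds 1 constant per array to all genes. SLC25A4 and SLC25A5 correlated at -0.094 over all pigs and 0.022 in the lower identifier run, and SLC25A3 and SLC25A4 at -0.054 there and at -0.097 without the 2 farthest pigs. With a replicate block 0 members were called (lowest limma adjusted p 0.789). Each number and each identifier run holds as many low as high pigs, so fits with these terms leave the differences as they are by construction and only change their errors. In deviations from the means of group and sex, low and high pigs of the same number correlated at -0.151 to -0.041. No low pig correlated best with the high pig of its number, so the numbers pair no pigs. Precision is limited by 6 pigs a group and by signals within the background range.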
